A study of Sus scrofa with 6 samples.

Results

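The genes described here encode the proteins that hand lipopolysaccharide (LPS) to the Toll-like receptors and carry the signal into the cell. They are CD14, LY96, LBP and BPI on the ligand side, the adaptors MYD88, TIRAP and TICAM1, the kinases IRAK1 and IRAK4, and the ubiquitin ligase TRAF6. They were chosen by name, as rows of the mRNA table whose pig Ensembl identifier carries one of these 10 symbols, and 9 of the 10 were found among the 14579 mRNAs. For TRAF6, the only identifier paired with the symbol (ENSSSCG00000038082) has no row, and the gene was not analysed here. The 6 libraries came from lung tissue of female hybrid piglets with a Tibetan sire and a Meishan dam, 1 library per piglet. The fetal group held 3 piglets taken on the last day before birth, after a pregnancy counted as 113 days, each from a sow of its own. The neonatal group held 3 piglets sampled 2 days after birth, from another 3 sows. Fetal piglets were delivered by caesarean and neonatal piglets were born, so stage, sow and delivery cannot be told apart. Values are FPKM, the number of fragments scaled by transcript length and by the mapped reads of the library, which the authors computed with Cufflinks, and which allow levels of different genes to be compared because they are per length.

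LPS is the outer membrane glycolipid of Gram-negative bacteria. In the textbook scheme, LBP in body fluids takes LPS out of bacterial membranes and passes it to CD14, and CD14 loads it onto LY96, also called MD-2, the small protein that sits on TLR4 and holds the lipid. BPI, a relative of LBP found mainly in neutrophil granules, binds LPS as well but neutralizes it and kills the bacteria. Dimerized TLR4 then recruits TIRAP and MYD88, which assemble IRAK4, IRAK1 and TRAF6 and lead to NF-kB and MAP kinases, and after uptake into endosomes it signals through TICAM1, also called TRIF, to interferon genes. In the lung these proteins are known from alveolar macrophages, neutrophils and epithelium, the first cells to meet inhaled bacteria.

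Errors rest on the spread between piglets within the groups, as the table holds FPKM without the reads behind it. Median FPKM per sample lay between 4.99 and 6.11 and summed FPKM between 339491 and 777982. Markers of lung were abundant, and SFTPC, the surfactant protein of alveolar type II cells, had between 3171 and 8790 FPKM in the 6 samples. Differences were tested in limma on log2(FPKM + 1) over all mRNAs, with Benjamini-Hochberg adjustment. The threshold was an adjusted p no higher than 0.05. A log2(FC) below is the neonatal minus the fetal mean on that scale, which understates changes of genes with low FPKM. Its median over all mRNAs was 0.13, and it moved to -0.0090 after median-of-ratios scaling, so differences are read against that shift. Neonatal means were the higher ones in 78.8% of calls, against 66.0% after median-of-ratios scaling and 57.9% after quantile normalization.

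None of the 9 genes passed the threshold, where 6.87% of all mRNAs did (5.41% higher and 1.45% lower in the neonatal group). In limma, 4 of the 9 (44.4%) had an unadjusted p under 0.05, against 24.2% of all mRNAs, and these were TICAM1, CD14, LY96 and IRAK1. In the same 4 genes the groups did not overlap, which was the case for 30.5% of all mRNAs. CD14, TICAM1 and IRAK1 had every neonatal value above every fetal value (20.9% of all mRNAs), and LY96 had every neonatal value below every fetal value (9.64% of all mRNAs). Lung tissue mixes cell types, and fewer cells of a type cannot be told apart from less RNA per cell. The remaining 5 genes, LBP, BPI, MYD88, TIRAP and IRAK4, overlapped between the groups. Mean log2(FPKM + 1) was higher in the neonatal group for 8 of the 9, against 59.9% of all mRNAs, and the median log2(FC) of the 9 was 0.72. The largest unadjusted p among the called mRNAs was 0.00343, and the nearest of the 9 genes to it was TICAM1 at 0.00616. With 3 piglets per group, the 95% intervals of the log2(FC) reached from 0.535 to 1.67 to either side, so a gene that missed the threshold is not shown to be equal in the groups.

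**Figure D1:**
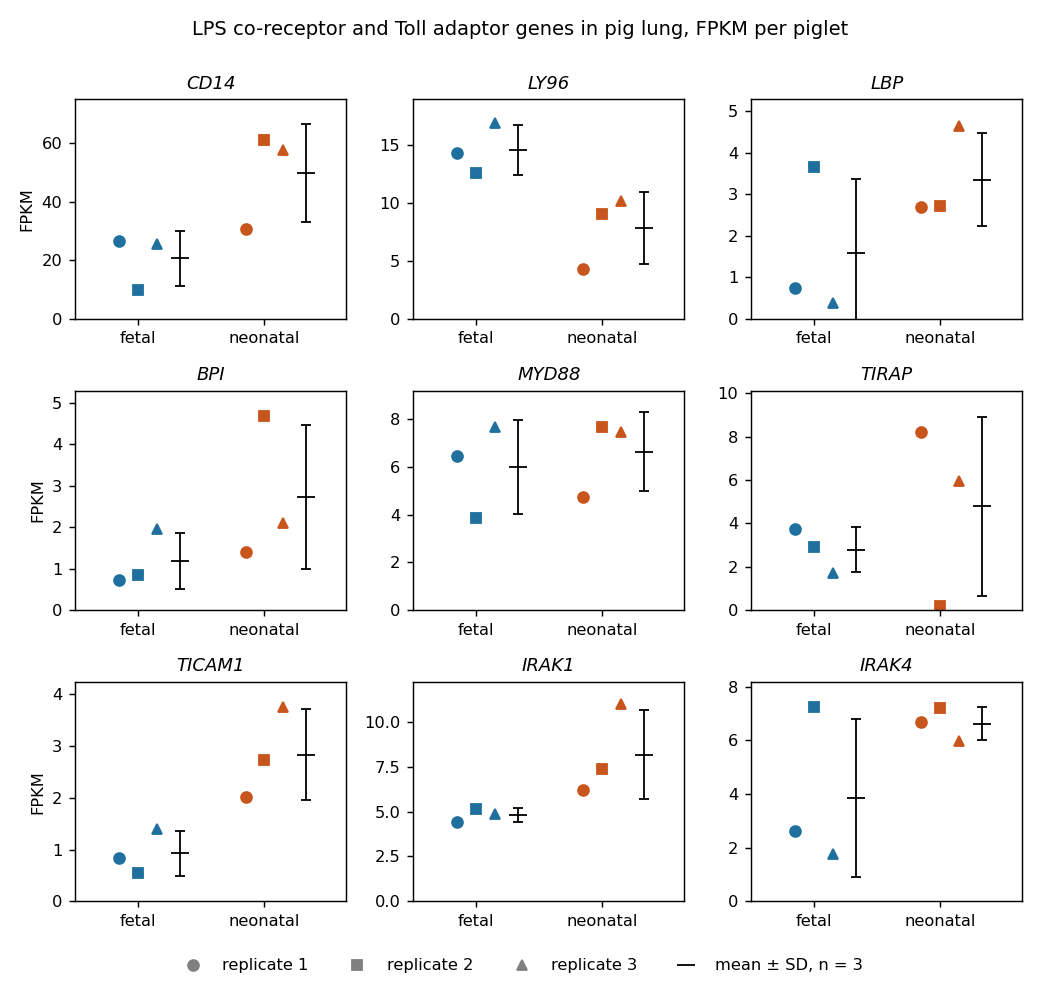
FPKM of the 9 genes in each of the 6 piglets (y axis, starting at 0, with a scale of its own in each panel), fetal in blue and neonatal in orange, with the mean ± SD of 3 samples beside each group (the lower bar of fetal LBP reaches below 0 and is not drawn in full). CD14, TICAM1 and IRAK1 have all neonatal points above the fetal ones, LY96 has all of them below, and the other 5 panels overlap.

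**Figure D2:**
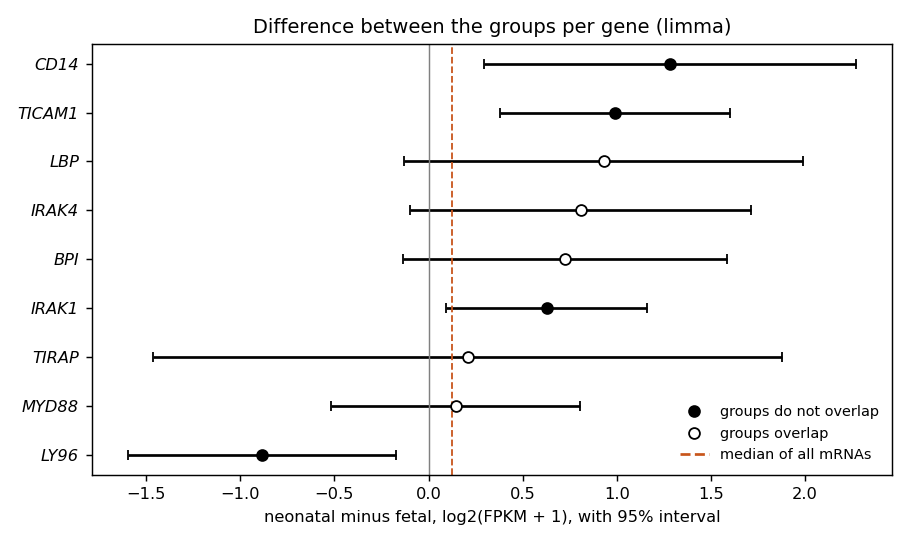
Neonatal minus fetal difference of mean log2(FPKM + 1) per gene (x axis) with its 95% interval from limma, filled where the groups do not overlap. The intervals of CD14, TICAM1, IRAK1 and LY96 leave out 0, that of TIRAP is the widest, and the dashed line marks the median of all mRNAs at 0.13.

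CD14 is the anchored and soluble co-receptor that transfers single LPS molecules to the TLR4 complex. It (ENSSSCG00000014369) was the most abundant of the 9 genes in both groups by mean FPKM. Its values were 26.4, 9.89 and 25.6 FPKM in Fetal1, Fetal2 and Fetal3 and 30.5, 61.1 and 57.6 FPKM in Neonatal1, Neonatal2 and Neonatal3. Neonatal1 stood only just above the highest fetal value, and Fetal2 was far below the other fetal samples. The means were 20.6 ± 9.33 and 49.8 ± 16.7 FPKM (SD, n = 3 each), a ratio of 2.41. The log2(FC) was 1.28 (standard error 0.42, 95% interval 0.30 to 2.27, adjusted p = 0.120 in limma). Without Fetal2 it was 0.85, and without Neonatal1 it was 1.60. With the shift of all mRNAs removed it was smaller: 1.11 after median-of-ratios scaling (adjusted p = 0.133 in limma) and 1.01 after quantile normalization (adjusted p = 0.140 in limma). Ranked by FPKM among all mRNAs of a sample, CD14 lay between the 70.4th and 87.8th percentile in the fetal group and between the 89.6th and 93.6th in the neonatal group.

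LY96 encodes MD-2, without which TLR4 does not bind LPS. It (ENSSSCG00000006175) was the only one of the 9 genes with a lower neonatal mean. Fetal values were 14.3, 12.6 and 16.9 FPKM, and neonatal values were 4.27, 9.07 and 10.18 FPKM. The fetal samples were close together, and Neonatal1 was the lowest of the 6. Means of 14.6 ± 2.17 and 7.84 ± 3.14 FPKM (SD, n = 3 each) gave a log2(FC) of -0.89 (standard error 0.30, 95% interval -1.60 to -0.18, adjusted p = 0.133 in limma). This difference ran against the shift of all mRNAs, and with the shift removed it was wider: -1.05 after median-of-ratios scaling (adjusted p = 0.0638) and -1.09 after quantile normalization (adjusted p = 0.0585). Without Neonatal1 it was -0.55. The percentile of LY96 among all mRNAs was 76.6 to 81.1 in the fetal samples and 42.7 to 64.2 in the neonatal samples.

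LBP, the acute phase protein that extracts LPS from bacterial membranes, was low (ENSSSCG00000028758). Its fetal values of 0.734, 3.64 and 0.388 FPKM spanned a 9.38-fold range, and its neonatal values were 2.69, 2.71 and 4.64 FPKM. Fetal2 lay within the neonatal range and the other fetal samples lay below it. The log2(FC) was 0.93 (standard error 0.45, adjusted p = 0.256 in limma) with Fetal2 and 1.46 without it (adjusted p = 0.0869 in limma). It was 0.59 without Fetal3 and 1.54 with a pseudocount of 0.1. LBP is made mainly by liver, and 2 of 8 hepatocyte markers were in the table. ALB had between 0.0540 and 0.570 FPKM in the 6 samples, with its highest value in Fetal2, whereas APOA1, which other tissues express too, had 21.9 FPKM in Fetal2 and its highest values, 31.1 and 32.4 FPKM, in Neonatal2 and Neonatal3. The part of such RNA in the LBP values was not tested.

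BPI, the bactericidal relative of LBP, lies next to it on chromosome 17 in the RefSeq gene table of Sscrofa11.1. BPI (ENSSSCG00000026605) had fetal values of 0.731, 0.837 and 1.95 FPKM and neonatal values of 1.40, 4.68 and 2.104 FPKM. Neonatal2 was the highest by a wide margin, and Neonatal1 lay below Fetal3. The log2(FC) of 0.72 (standard error 0.37, adjusted p = 0.275 in limma) was 0.37 without Neonatal2 and 1.10 with a pseudocount of 0.1. The neighbouring genes thus had their extremes in different samples, LBP in Fetal2 and Neonatal3 and BPI in Fetal3 and Neonatal2.

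MYD88 is the adaptor shared by nearly all Toll-like receptors and the IL-1 receptor family. It (ENSSSCG00000011251) was nearly level, with 6.46, 3.84 and 7.69 FPKM before birth and 4.74, 7.69 and 7.48 FPKM after birth. The lowest samples, Fetal2 and Neonatal1, belonged to different groups. Its log2(FC) of 0.14 (standard error 0.28, 95% interval -0.52 to 0.80, adjusted p = 0.786 in limma) was close to the median of all mRNAs, and it turned to -0.0093 after median-of-ratios scaling, to -0.0058 after quantile normalization and to -0.10 without Fetal2. The interval leaves room for a change of less than 1 on the log2 scale in either direction.

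TIRAP, which bridges TLR2 and TLR4 to MYD88 at the plasma membrane, had the least settled values of the 9 genes (ENSSSCG00000022413). They were 3.76, 2.89 and 1.71 FPKM in the fetal group and 8.22, 0.208 and 5.96 FPKM in the neonatal group. Neonatal1 and Neonatal3 lay above all fetal samples and Neonatal2 lay below all of them, a 39.6-fold range within the group. The log2(FC) was 0.21 (standard error 0.72, adjusted p = 0.879 in limma). It was 1.12 without Neonatal2 and -0.35 without Neonatal1, so that no direction can be given.

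TICAM1, the adaptor TRIF of the endosomal arm, came nearest to the threshold (ENSSSCG00000024771). It had 0.842, 0.540 and 1.39 FPKM in the fetal group and 2.02, 2.72 and 3.75 FPKM in the neonatal group. It had the lowest fetal mean of the 9 genes, and every neonatal sample exceeded the highest fetal one. Means of 0.925 ± 0.433 and 2.83 ± 0.871 FPKM (SD, n = 3 each) differed by a factor of 3.06, the largest ratio of means among the 9. The log2(FC) was 0.99 (standard error 0.26, 95% interval 0.38 to 1.60, adjusted p = 0.0692 in limma). With a pseudocount of 0.1 in place of 1 it was 1.56. It was 0.88 after median-of-ratios scaling and 0.89 after quantile normalization. It stayed positive in all 14 alternatives, with adjusted p values from 0.0605 to 0.2315.

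IRAK4 is the kinase that MYD88 recruits first, and IRAK1 is the kinase that IRAK4 activates. IRAK1 (ENSSSCG00000012795) had fetal values of 4.40, 5.14 and 4.88 FPKM and neonatal values of 6.18, 7.37 and 10.96 FPKM. The fetal values were within a 1.17-fold range, the narrowest of any gene of the 9 in that group, and all neonatal values lay above them. The log2(FC) was 0.63 (standard error 0.23, 95% interval 0.09 to 1.16, adjusted p = 0.152 in limma), and 0.42 without Neonatal3. It was 0.47 both after median-of-ratios scaling and after quantile normalization. IRAK4 (ENSSSCG00000000799) had fetal values of 2.61, 7.23 and 1.76 FPKM and neonatal values of 6.67, 7.22 and 5.98 FPKM. Fetal2 had the highest value of all 6 and the other fetal samples the lowest. Its log2(FC) of 0.81 (standard error 0.39, adjusted p = 0.249 in limma) became 1.27 without Fetal2 (adjusted p = 0.0706 in limma) and 0.48 without Fetal3.

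By mean FPKM, the fetal order was CD14, LY96, MYD88, IRAK1, IRAK4, TIRAP, LBP, BPI and TICAM1. Only the step from LY96 to MYD88 was one where the values of neighbours did not overlap. CD14 exceeded LY96 in Fetal1 and Fetal3 and lay below it in Fetal2. In the neonatal group the order was CD14, IRAK1, LY96, MYD88, IRAK4, TIRAP, LBP, TICAM1 and BPI. There the only step without overlap was that from CD14 to IRAK1, and every later step, from IRAK1 down to BPI, had neighbours with overlapping values. LY96 held between 23.8% and 27.2% of the summed FPKM of the 9 genes in the fetal samples and between 6.40% and 9.37% in the neonatal samples.

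Because CD14, LY96 and TLR4 form a chain, their levels were also set against each other within each piglet. A ratio of plain FPKM cancels any scaling of a whole sample. The tested ratio of FPKM + 1 does so only in part, and least for genes near 1 FPKM. FPKM of CD14 was 1.84, 0.784 and 1.51 times that of LY96 in the fetal samples and 7.15, 6.73 and 5.66 times in the neonatal samples. The neonatal values were close together and all above the fetal ones. That separation was fixed by the single genes, as CD14 was higher and LY96 lower in every neonatal sample. On log2(FPKM + 1), the ratio was 0.36 ± 0.61 and 2.53 ± 0.12 (SD, n = 3 each), a difference of 2.17. A two-sided exact permutation test gave p = 0.1, which 3 against 3 samples cannot go below. Given the separation of the single genes, this p adds nothing to them. TLR4, the signalling receptor itself, had fetal values of 9.98, 5.29 and 6.81 FPKM and neonatal values of 10.0, 16.0 and 21.6 FPKM (log2(FC) 0.99, adjusted p = 0.114 in limma). LY96 was 1.44, 2.38 and 2.48 times TLR4 in the fetal samples and 0.426, 0.566 and 0.471 times in the neonatal samples. In every fetal sample LY96 exceeded TLR4, and in every neonatal sample it was below TLR4. This log2 ratio differed by -1.88 between the groups (two-sided exact permutation p = 0.1, again the lowest the design allows). Its separation and p were likewise fixed, as all neonatal TLR4 values lay above the fetal ones and all LY96 values below. The mRNA levels do not give the amounts of the proteins.

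MYD88 and TICAM1 head the 2 arms of TLR4 signalling. FPKM of MYD88 was 7.67, 7.12 and 5.52 times that of TICAM1 before birth and 2.35, 2.83 and 1.99 times after birth. MYD88 was the higher of the pair in every sample, and the ratio did not overlap between the groups. On log2(FPKM + 1) it was 1.84 ± 0.18 and 1.00 ± 0.20 (SD, n = 3 each), a difference of -0.85 (two-sided exact permutation p = 0.1, the lowest the design allows). This difference is the log2(FC) of MYD88, 0.14, minus that of TICAM1, 0.99, and so mainly restates that of TICAM1. With a pseudocount of 0.1 the difference was -1.39. Adjusted over the 3 ratios, which were chosen with values of these genes known, each p was 0.1.

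**Figure D3:**
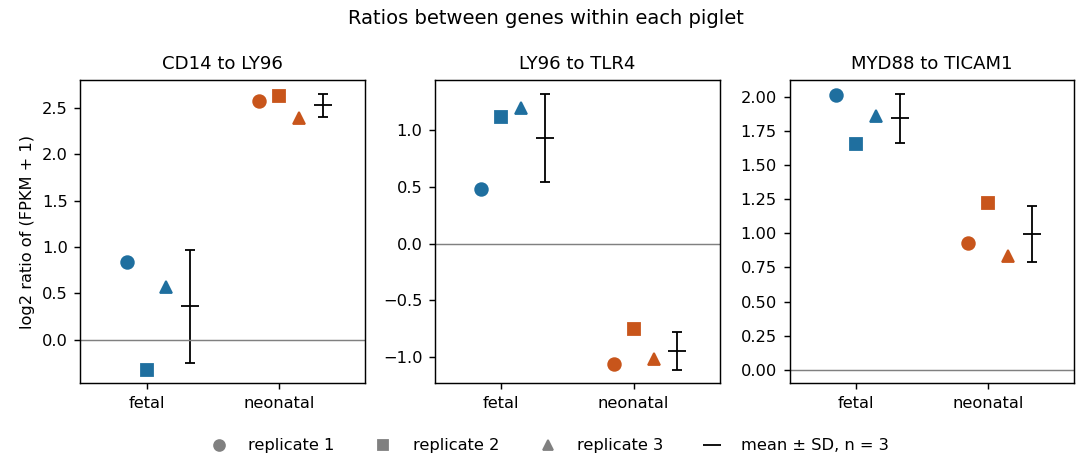
Log2 ratio of FPKM + 1 between pairs of genes within each piglet (y axis), fetal in blue and neonatal in orange, with mean ± SD of 3 samples. The ratio of CD14 to LY96 is higher in all neonatal piglets, and the ratios of LY96 to TLR4 and of MYD88 to TICAM1 are lower in all of them.

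Several of these genes are expressed by macrophages and neutrophils, so marker genes of those cells were read beside them. Of 19 macrophage and monocyte markers 14 were in the table, and their summed level was 499 to 1094 FPKM in the fetal group and 899 to 2110 FPKM in the neonatal group, with overlap. The median of the markers, relative to the fetal mean of each, was 0.41, -0.38 and 0.01 (log2) in the fetal samples and 0.70, 1.32 and 1.57 in the neonatal samples, in replicate order. CD14 on the same scale was 0.46, -0.87 and 0.41 and then 0.66, 1.64 and 1.55, so Fetal2 was the lowest fetal and Neonatal1 the lowest neonatal sample in both. LY96 had the same lowest sample in each group but lower values after birth. It was at -0.02, -0.19 and 0.21 before birth and -1.56, -0.62 and -0.47 after birth. These lowest samples were not particular to macrophage markers. Fetal2 and Neonatal1 were also lowest in the medians of endothelial, alveolar type I, alveolar type II, mesenchymal and erythroid markers. The medians of neutrophil, lymphocyte and hepatocyte markers had another lowest fetal sample. Of 12 neutrophil markers 9 were in the table, summing to 84.3 to 157 FPKM in the fetal and 846 to 1321 FPKM in the neonatal group, without overlap. S100A8, S100A9 and S100A12 made up most of that sum in every sample, with 253, 150 and 761 FPKM in Neonatal2. These calgranulins rose, with log2(FC) values of 2.81, 3.15 and 3.72 (adjusted p in limma of 0.00254, 0.00197 and 0.00435). The granule protease ELANE was listed at 0 in every neonatal sample. It was low before birth too, at 1.28, 0.562 and 0.071 FPKM (log2(FC) -0.64, adjusted p = 0.237 in limma). CSF3R, MMP9 and PADI4 had all neonatal values above the fetal ones but did not pass the threshold. PRTN3 and MMP8 overlapped between the groups, with log2(FC) values of -0.04 and 0.69. The part of these cells in the values of CD14, TICAM1 and BPI was not tested.

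**Figure D4:**
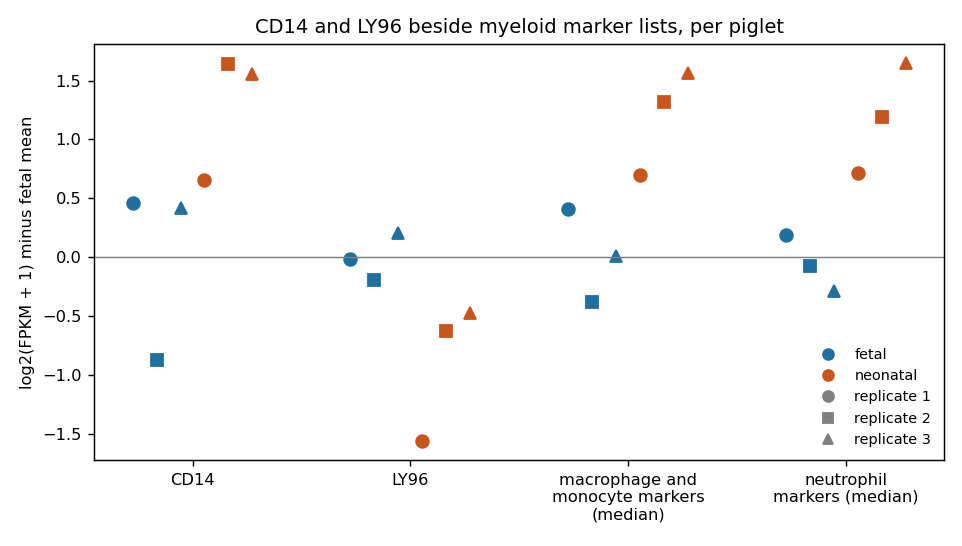
Level of CD14 and LY96 and median level of the macrophage and monocyte markers (14 genes) and the neutrophil markers (9 genes) in each piglet, as log2(FPKM + 1) minus the fetal mean (y axis). CD14 and both marker medians are higher in the neonatal piglets, with Neonatal1 the lowest of them, and LY96 is lower in all 3.

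Other genes of the pathway were read from 7 lists by role, chosen with earlier results of these data known. Their shares are therefore a description and no test of the pathway. Of 103 genes 75 were in the table, and 12 (16.0%) passed the threshold, all higher in the neonatal group, where 5.41% of all mRNAs passed in that direction. In 36 of the 75 (48.0%) all neonatal values lay above all fetal values, against 20.9% of all mRNAs, and the median log2(FC) was 0.60. That median was 0.49 after median-of-ratios scaling, where 9 genes passed, and 0.41 after quantile normalization, where 12 passed. The number past the threshold depended on single samples. It was 4, 2 and 4 without Fetal1, Fetal2 or Fetal3, and 13, 2 and 2 without Neonatal1, Neonatal2 or Neonatal3. Of the 12 genes, FOS passed in 5 of these 6 fits, IL1A and CXCL2 in 4, BPIFB1 in 2, TLR2, TLR8, SCARB1, LTF, ECSIT and CCL2 in 1, and TLR7 and PIK3AP1 in 0.

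**Figure D5:**
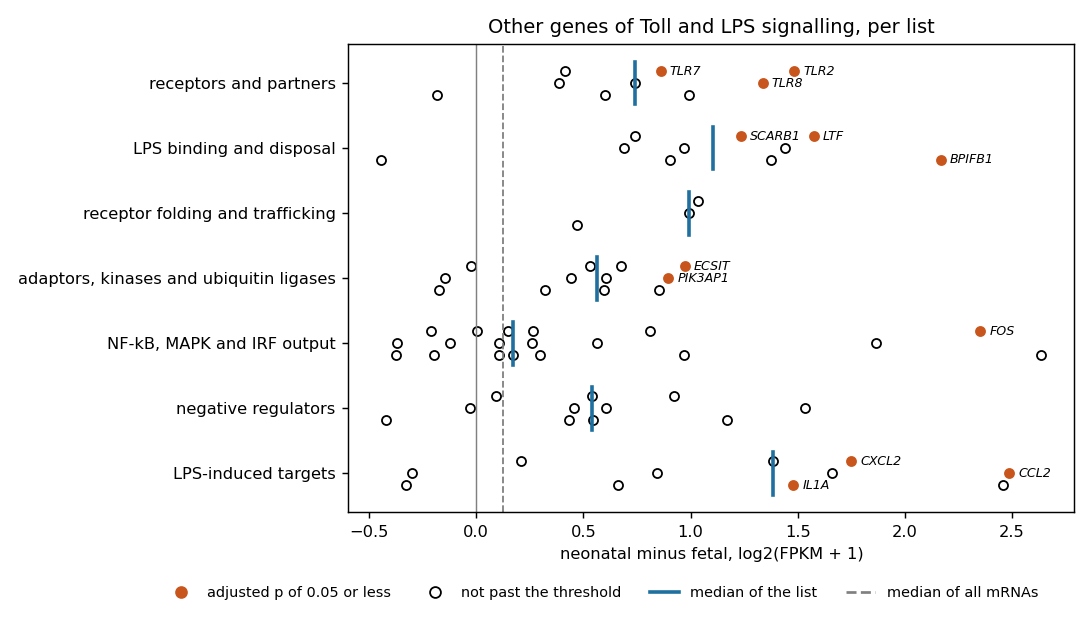
Neonatal minus fetal difference of mean log2(FPKM + 1) (x axis) for the 75 other genes of Toll and LPS signalling in 7 lists, each point a gene, filled and named where the adjusted p is 0.05 or less. The 12 named genes all lie to the right of the dashed median of all mRNAs, and the list of NF-kB, MAPK and IRF output has its median closest to that line.

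On the ligand and receptor side, 3 of 9 receptors and partners passed. They were TLR2, TLR7 and TLR8, with log2(FC) values of 1.48, 0.86 and 1.34 (adjusted p in limma of 0.0180, 0.0493 and 0.0387). From these samples, the study names TLR2, TLR4 and TLR8 as significantly higher in neonatal lungs, by its own test in Cuffdiff. For the genes it names, the paper also reports support from qRT-PCR. TLR4 was higher here too but did not pass (adjusted p = 0.114 in limma). TLR2 senses bacterial lipoproteins, and TLR7 and TLR8 sense single-stranded RNA. Of 10 genes that bind or dispose of LPS, 3 passed. BPIFB1, a secreted airway relative of BPI and LBP, had means of 1.70 ± 1.29 FPKM before and 10.5 ± 2.46 FPKM after birth (SD, n = 3 each), a rise with an adjusted p of 0.0149 in limma. LTF, the iron-binding lactoferrin of neutrophil granules and secretions, rose from a mean of 2.37 ± 1.33 FPKM to one of 8.48 ± 0.940 FPKM (SD, n = 3 each), with an adjusted p of 0.0328 in limma. SCARB1, a scavenger receptor that takes up lipoproteins, rose from a mean of 3.30 ± 0.820 FPKM to one of 9.21 ± 2.35 FPKM (SD, n = 3 each), with an adjusted p of 0.0302 in limma. Of the chaperones of Toll-like receptors, HSP90B1 and CNPY3 had log2(FC) values of 1.03 and 0.99 with adjusted p values of 0.0650 and 0.0984 in limma, so that 0 of 3 passed, 2 of them with an unadjusted p under 0.05 (24.2% of all mRNAs).

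Downstream of the adaptors, 2 of 12 adaptors, kinases and ligases passed, ECSIT and PIK3AP1. ECSIT, a partner of TRAF6, rose from a mean of 11.3 ± 0.615 FPKM to one of 23.4 ± 4.16 FPKM (SD, n = 3 each), with an adjusted p of 0.0277 in limma. PIK3AP1, which links Toll-like receptors to PI3 kinase, rose from a mean of 2.25 ± 0.277 FPKM to one of 5.08 ± 1.05 FPKM (SD, n = 3 each), with an adjusted p of 0.0447 in limma. Among 19 genes of NF-kB, MAP kinase and interferon regulatory factor output, FOS alone passed, at a log2(FC) of 2.35 (adjusted p = 0.00790 in limma). NFKB1 had the widest difference of that list, 2.64, with fetal values of 384, 204 and 156 FPKM and neonatal values of 1136, 628 and 4174 FPKM (adjusted p = 0.0711 in limma). The other NF-kB subunits RELA, REL and NFKB2 had neonatal means of only 17.0, 3.02 and 9.57 FPKM. Whether the NFKB1 row holds reads of that gene alone was not tested. None of 11 negative regulators passed, 3 of them having an unadjusted p under 0.05 in limma, a share near the 24.2% of all mRNAs. Of these 11, IRAK3, a kinase-dead relative of IRAK1, had 13.5, 5.14 and 571 FPKM in the neonatal samples, and NFKBIE had a log2(FC) of 1.17 (adjusted p = 0.0523 in limma).

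Of 11 genes that LPS is known to induce, 3 passed. The monocyte chemokine CCL2 rose from a mean of 3.08 ± 2.54 FPKM to one of 19.5 ± 5.54 FPKM (SD, n = 3 each), with an adjusted p of 0.0206 in limma. For the neutrophil chemokine CXCL2 the means were 0.296 ± 0.257 and 3.36 ± 0.820 FPKM (adjusted p = 0.00960 in limma), and for the cytokine IL1A 0.135 ± 0.128 and 2.18 ± 0.512 FPKM (adjusted p = 0.0115 in limma). CXCL10, an interferon-induced chemokine, had 7.53, 8.83 and 134 FPKM in the neonatal samples, all above the fetal values, with an adjusted p of 0.179 in limma.

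The mRNAs whose profile over the 6 samples was most like that of a gene were found by Pearson correlation of log2(FPKM + 1) with the 9806 other mRNAs that carry a symbol. For CD14 they were COPG1, HUS1 and MIB2, with coefficients of 0.999, 0.996 and 0.994, and 201 mRNAs reached 0.95. For LY96 they were SPAST, PLCB4 and FRMD1, with coefficients of 0.993, 0.990 and 0.990, and 45 mRNAs reached 0.95. Over 6 samples that fall into 2 groups, such values are a description only.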

How the data were processed

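Lung RNA of 6 piglets was sequenced by the authors from strand-specific Ribo-Zero libraries on an Illumina HiSeq instrument. Per the methods of the paper and the submitters' processing notes, the authors mapped filtered reads to Sscrofa10.2 with TopHat2 2.1.0 and computed FPKM with Cufflinks 2.2.1, keeping mRNAs with FPKM above 0.5 in at least 1 sample, and the deposited table of 14579 mRNAs met this filter throughout. The lncRNA table was not used here, since no gene positions of its build were at hand.

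Columns were matched to samples by name, with 0 left over. Symbols came from a reference table for 9478 mRNAs and from a supplementary gene table of the paper for 329 more. The members, gene lists and ratios were chosen with earlier results of these data known. All 9 members found are named. Of each pathway list, the genes past the threshold and the 2 with the largest differences are named.

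log2(FPKM + 1) was fitted in limma 3.58.1 (R 4.3.3, mean-variance trend) over all mRNAs with no covariate, with Benjamini-Hochberg adjustment. The fit was tested on simulated data. Permutation tests and tables used Python 3.11.15, scipy 1.17.1 and pandas 2.3.3. Alternatives were pseudocounts of 0.5 and 0.1, filters of FPKM above 1 in at least 3 samples and above 0.5 in at least 2, quantile normalization, median-of-ratios scaling, a fit without the variance trend, a block for the replicate number, and leaving out each sample.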

Additional observations from a re-analysis of the deposited data

How the results depend on the processing

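In limma, 0 of the 9 genes passed the threshold under each of the 14 alternatives. CD14, LY96, LBP, BPI, TICAM1, IRAK1 and IRAK4 kept their direction in all of them. Median-of-ratios scaling widened the difference of LY96 and reduced those of the other 6, with LBP, BPI and IRAK4 at 0.80, 0.61 and 0.66. MYD88 turned to -0.0093 with median-of-ratios scaling, -0.0058 with quantile normalization and, with 1 sample left out, ranged from -0.10 (without Fetal2) to 0.34 (without Neonatal1). TIRAP turned to -0.14 with a pseudocount of 0.1, -0.013 without Fetal3, -0.14 without Neonatal3 and -0.35 without Neonatal1, and was 1.12 without Neonatal2. Their causes were not tested. All mRNAs past the threshold, 1001 with all samples, numbered from 196 (without Fetal2) to 944 (without Neonatal1) with 1 sample left out, and the 12 other pathway genes from 2 to 13. The same replicate numbers belong to piglets of different sows. Deviations of same-numbered samples correlated at -0.041, -0.00080 and -0.0017 over 12533 mRNAs, and those of differently numbered samples at -0.0485 to 0.0497. No pairing by number was seen over these mRNAs as a whole. Such correlations cannot exclude a shared batch that touches some genes. With the replicate block, which costs 2 degrees of freedom, 401 mRNAs, 6 pathway genes and 0 of the 9 genes passed, and the 3 ratios kept their differences with exact p values of 0.25, the smallest possible. The ratio of MYD88 to TICAM1 moved to -1.08 and -1.39 with pseudocounts of 0.5 and 0.1, and stayed between -0.96 and -0.76 with 1 sample left out. Without read counts, the precision of genes near 1 FPKM, such as TICAM1, LBP and BPI, is not known.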

Other observations

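Within the groups, the 9 genes varied together in part. As deviations from the group means on log2(FPKM + 1), CD14 and MYD88 correlated at 0.973 over the 6 samples, MYD88 and TICAM1 at 0.870, and LY96 at 0.750 with CD14 and 0.837 with TICAM1. LBP and IRAK4 correlated at 0.878 with each other, and IRAK4 at -0.777 with CD14 and -0.788 with MYD88. Fetal2 had the lowest fetal CD14, MYD88, LY96 and TICAM1 and the highest fetal LBP and IRAK4, and Neonatal1 had the lowest neonatal CD14, MYD88, LY96 and TICAM1. The values share libraries, and 3 samples per group leave them as descriptions. The coefficients given are among the largest of all pairs, and others were near 0, such as TIRAP and IRAK4 at -0.006. Fetal2 and Neonatal1 also had the lowest median-of-ratios factors of their groups, 0.908 and 1.001. Several cell type marker medians were lowest in the same samples, so the pattern is not particular to these genes. TIRAP and BPI correlated at -0.930, with Neonatal2 the lowest neonatal sample in TIRAP and the highest in BPI.

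For markers of other cell types, the median log2(FC) was -0.03 over 8 lymphocyte, -0.15 over 6 endothelial, 0.38 over 3 alveolar type I, 0.40 over 6 alveolar type II, 0.62 over 6 mesenchymal, -0.13 over 4 erythroid and 0.31 over 2 hepatocyte markers, against 1.2003 over the macrophage and monocyte markers, 1.18 over the neutrophil markers and 0.13 over all mRNAs. Of the 14 macrophage and monocyte markers, SPI1 and LYZ passed, at log2(FC) values of 1.16 and 1.96 (adjusted p in limma of 0.0329 and 0.00471). CSF1R had 0.06, and MERTK, at -0.19, was the only 1 with a lower neonatal mean. In 8 of the 14 all neonatal values lay above the fetal ones, against 20.9% of all mRNAs.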
